A study of Mus musculus with 5 samples.

Results

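The 52 collagen and laminin genes described here were those of 18194 measured genes whose symbol was Col, a number, a and a number, or Lama, Lamb or Lamc and a number, on probe sets annotated to 1 gene. They comprised 16 genes of basement membrane types (6 type IV collagen chains and 10 laminin chains), 11 fibrillar collagens and 25 other collagens. RNA of mouse ovarian granulosa cells was hybridised to 5 Affymetrix arrays, 1 per group. The knockout carried floxed (fl/fl) alleles for both of the transcription factors C/EBPα and C/EBPβ, together with Cyp19-cre, a Cre recombinase driven by the promoter of a gene of granulosa cells. Knockout cells were collected 4 and 8 h after human chorionic gonadotropin (hCG), at 23 days of age, and 24 h after it, at 24 days. Wild-type cells came from mice of the same ages at 8 and 24 h. Every group had first received equine chorionic gonadotropin (eCG) for 48 h, which drives follicle growth, and hCG acts as the ovulatory signal of luteinizing hormone. The sources used here do not say whether animals were pooled for an array.

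Granulosa cells rest on a basement membrane, a thin sheet built from networks of type IV collagen and of laminin, each laminin being a trimer of an alpha, a beta and a gamma chain. Outside this sheet lie the theca, vessels and stroma, whose matrix is rich in fibrillar collagens of types I, III and V. At ovulation and luteinization the sheet is broken down, vessels and theca cells enter the granulosa layer, and new matrix is laid down in the corpus luteum.

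The promoter windows of 4 members are printed for their layout or motif, and no link between these sequences and the intensities was tested. Col4a1 and Col4a2, the chains of the common type IV network, lie head to head, so that their windows overlap by 78 bases on opposite strands, and their intensities differed in the same direction at both times. Col6a2 and Col4a6 carry a C/EBP-type motif, and the first was past the 2-fold rule at 8 h while the second was not. Windows run from 250 bases before the gene's start to 50 after it, in RefSeq GRCm38.p6, and are written 5′ to 3′ on the gene's strand. Capitals mark CCAAT, and TTGCNNAA, a loose form of the palindrome that C/EBP factors bind, each on either strand. No match of one overlapped a match of the other.
Col4a1, chr8:11312777-11313076, minus strand: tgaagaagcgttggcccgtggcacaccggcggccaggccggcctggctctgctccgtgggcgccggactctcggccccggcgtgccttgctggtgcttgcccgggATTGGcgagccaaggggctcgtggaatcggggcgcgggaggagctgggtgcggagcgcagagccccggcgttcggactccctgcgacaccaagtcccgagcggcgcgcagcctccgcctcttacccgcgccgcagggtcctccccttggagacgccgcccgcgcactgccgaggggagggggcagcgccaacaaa
Col4a2, chr8:11312555-11312854, plus strand: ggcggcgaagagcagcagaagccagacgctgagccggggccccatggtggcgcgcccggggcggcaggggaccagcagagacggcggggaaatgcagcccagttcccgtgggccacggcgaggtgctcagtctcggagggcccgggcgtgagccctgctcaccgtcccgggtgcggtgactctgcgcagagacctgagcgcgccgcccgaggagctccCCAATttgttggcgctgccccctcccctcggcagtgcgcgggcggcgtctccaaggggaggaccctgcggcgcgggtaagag
Col6a2, chr10:76623581-76623880, minus strand: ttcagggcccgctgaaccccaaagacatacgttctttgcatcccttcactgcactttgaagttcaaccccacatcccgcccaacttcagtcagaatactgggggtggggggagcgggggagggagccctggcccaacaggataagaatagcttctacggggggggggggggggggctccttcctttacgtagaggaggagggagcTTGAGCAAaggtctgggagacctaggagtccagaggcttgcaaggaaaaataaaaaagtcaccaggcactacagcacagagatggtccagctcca
Col4a6, chrX:141474027-141474326, minus strand: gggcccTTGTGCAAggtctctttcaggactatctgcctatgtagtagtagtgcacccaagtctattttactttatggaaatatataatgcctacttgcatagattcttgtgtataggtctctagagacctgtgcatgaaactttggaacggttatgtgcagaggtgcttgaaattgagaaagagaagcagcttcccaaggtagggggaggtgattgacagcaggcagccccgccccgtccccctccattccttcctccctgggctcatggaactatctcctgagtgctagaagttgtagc
The Col6a2 window shown is the one of its 2 annotated starts that holds the motif. In all, 38 of the 52 genes had a window in the table, 42 windows together. TTGCNNAA on either strand was in 3 of these 42, those of Col13a1, Col6a2 and Col4a6, and in 10.8% of all 32851 promoter windows. The full palindrome TTGCGCAA was in 0 of the 42 and in 0.18% of all windows, and CCAAT on either strand was in 14 of the 42 and in 37.41% of all. These are matches of letters in short windows and say nothing of binding.

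Intensities are the authors' deposited values on a linear scale. The floor was an intensity of 22, the 40th percentile of the table. Values under it entered a log2 difference as deposited where the highest value compared reached the floor. A fold change with its lower value under the floor is given as at least, with that value set to the floor. With 1 array per group there is no replicate error and no p-value for a single comparison. The 2-fold rule called a gene higher or lower where its intensities differed by 1 or more on the log2 scale and the larger one was at the floor or above. The precision is limited by the number of arrays. Probe sets of the same gene gave log2 differences between genotypes whose SD was 0.28 at 8 h and, at 24 h, 0.40, which is technical spread only. The knockout array at 4 h had a median intensity of 54, against 31 or 32 on the others, so it is given by intensity and by percentile within its own array and enters no difference. Both targeted transcripts were lower in the knockout. Cebpa was 40 at 4 h, 19 at 8 h and 38 at 24 h in the knockout, and 685 at 8 h and 352 at 24 h in wild type. Cebpb was 42 at 4 h, 1127 at 8 h and 85 at 24 h in the knockout, and 7436 at 8 h and 3976 at 24 h in wild type, so its signal in the knockout was highest at 8 h. Which part of each gene was deleted is not known here, nor is where these probe sets lie relative to it. Of the 52 genes, 42 reached the floor on at least 1 of the 8 h and 24 h arrays, 36 on all 4 of them, and 10 on none. As a check of the cell type, Inha, the inhibin alpha subunit and a granulosa marker, was at 20053 in the knockout and 16632 in wild type at 8 h.

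At 8 h after hCG, genes of fibrillar collagens I, III and V and of the common type IV network were lower in the knockout. Of 9 laminin chains at the floor, 8 did not pass the rule on their main probe sets, though 8 of the 9 lay below wild type. The laminin median was -0.44, and 1 laminin, or 11.1%, was lower by the rule. Of 42 members at the floor, 14 were lower and 1 higher, 33.3% and 2.38%, against 4.05% lower and 1.58% higher, or 5.63% in either direction, of all 12924 genes. All 15 reached the floor on both arrays. The median log2 difference was -1.25 over the 9 fibrillar members at the floor and -0.60 over the 15 basement membrane members, beside -0.01 over all genes. When all 11 and all 16 measured members were taken, those medians were -0.88 and -0.52. The members were chosen by name, and no test of the lists was made.

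Among fibrillar collagens, Col3a1, which forms type III collagen of soft, distensible tissue, had an intensity of 1762 in the knockout and 8032 in wild type at 8 h, 4.56-fold lower. Col1a1 and Col1a2, the chains of type I collagen, were 141 in the knockout against 469 in wild type and 1264 in the knockout against 5019 in wild type, 3.33- and 3.97-fold lower. The type V chains, which set the width of type I fibrils, went the same way. Col5a1 was 192 in the knockout and 535 in wild type, 2.79-fold lower, and Col5a2 was 599 in the knockout and 1420 in wild type, 2.37-fold lower. Each other probe set of these 5 genes at the floor also lay below wild type, and of them 1 for Col5a1 did so by less than the rule (log2 difference -0.74). Col11a1, a minor chain of cartilage fibrils, missed the rule on its main probe set, at 103 in the knockout and 189 in wild type, and passed it on the other (-1.09), at 109 in the knockout and 232 in wild type. The rule was also missed by Col27a1, at 290 in the knockout and 348 in wild type, and Col5a3, at 15 in the knockout and, at the floor, 22 in wild type. Col24a1, a fibrillar chain known from developing bone and cornea, ran against the rest. It was 80 in the knockout and 27 in wild type, 2.96-fold higher and the only member called higher at 8 h.

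The 6 type IV chains divided at 8 h. Col4a1 was 1994 in the knockout and 5559 in wild type, 2.79-fold lower, and its head-to-head partner Col4a2 was 801 in the knockout and 2376 in wild type, 2.97-fold lower. The second probe set of Col4a1 gave a log2 difference of -1.74, beyond the -1.48 of the main one. Col4a4, a chain of the specialised network best known from the kidney glomerulus, was 48 in the knockout and 189 in wild type, 3.94-fold lower. Its partner Col4a3 was 25 in the knockout and 49 in wild type, just short of the rule. Col4a5 and Col4a6 lay close to wild type, at 366 in the knockout and 331 in wild type, and at 38 in the knockout and 35 in wild type. The log2 differences of these 2 X-linked genes, 0.15 and 0.12, were within the spread between probe sets.

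Of 9 laminin chains at the floor, Lama2 alone passed the rule at 8 h on its main probe set. Lama2, the alpha chain of muscle and mesenchymal basement membranes, was 68 in the knockout and 214 in wild type, 3.15-fold lower. Lama4, the alpha chain typical of vessel walls, missed it at 138 in the knockout and 239 in wild type, a log2 difference of -0.79. Lamb1, a widespread beta chain, was 1038 in the knockout and 1748 in wild type, with a log2 difference of -0.75 (-0.99 and -1.07 on other probe sets at the floor). Its partner Lamc1, the common gamma chain, was 687 in the knockout and 572 in wild type, 0.26. Another probe set of Lamc1 at the floor lay the other way (-0.39), at 68 in the knockout and 89 in wild type. Lama1, an alpha chain prominent in embryonic basement membranes, was 771 in the knockout and 921 in wild type, and Lamb2 was 434 in the knockout and 479 in wild type. Lama3, Lama5 and Lamc3 had log2 differences of -0.60, -0.21 and -0.44.

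**Figure D1:**
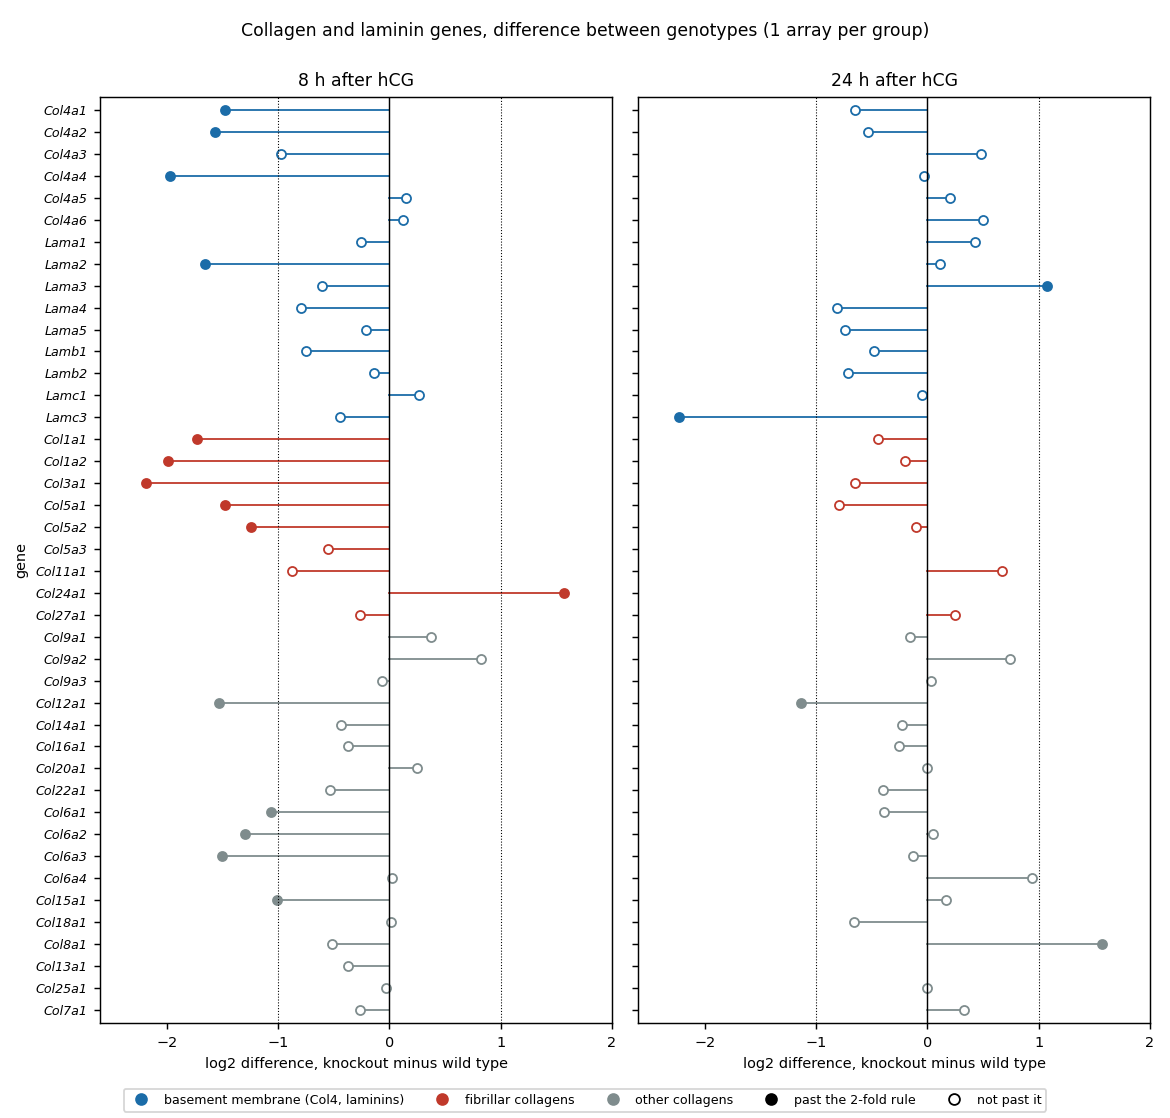
Log2 difference between genotypes, knockout minus wild type, at 8 h (left) and 24 h (right) for the 42 collagen and laminin genes that reached the floor on an 8 h or 24 h array. Each point is 1 gene from 1 array per group, filled where past the 2-fold rule (dotted lines), and genes under the floor on both arrays of a time have no point. At 8 h 14 genes lie past the lower line and Col24a1 past the upper one. At 24 h Lamc3 and Col12a1 lie past the lower line and Lama3 and Col8a1 past the upper one.

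Of 5 measured type VI chains, which form beaded microfilaments around cells and basement membranes, 3 were lower at 8 h. Col6a1 was 687 in the knockout and 1440 in wild type (2.10-fold lower), Col6a2 was 354 in the knockout and 873 in wild type (2.47-fold lower), and Col6a3 was 242 in the knockout and 686 in wild type (2.83-fold lower). Col6a4 was level, at 146 in the knockout and 144 in wild type. Col12a1, which decorates type I fibrils, was 44 in the knockout and 127 in wild type, 2.89-fold lower. Another probe set of Col12a1 at the floor gave -0.22, and the mean of all 4, 2 of them under the floor, was short of the rule at -0.49. Col15a1, a collagen of the basement membrane zone of vessels and muscle, was 53 in the knockout and 107 in wild type, 2.02-fold lower, a call lost when arrays were centred or quantile normalized. The related Col18a1, which carries the endostatin domain, was 675 in the knockout and 670 in wild type.

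Lists of cell type markers were set beside these values. Of 15 markers of stroma and smooth muscle, 12 were lower in the knockout at 8 h, their median log2 difference was -2.20, and they summed to 4092 in the knockout and 17476 in wild type. Among them Rgs5, a marker of pericytes, was 40 in the knockout and 453 in wild type (11.3-fold lower), and Lum, a proteoglycan that binds collagen fibrils, was 110 in the knockout and 653 in wild type (5.94-fold lower). Endothelial markers were lower in 14 of 15 at the floor, with a median of -1.63 and sums of 787 in the knockout and 2519 in wild type, and Emcn, a sialoprotein of endothelial cells, was 39 in the knockout and 400 in wild type (10.3-fold lower). For theca the median was -0.49 and 2 of 7 markers were lower, and for leukocytes it was -0.57, with 4 of 15 lower and 1 higher. Of 16 listed granulosa markers 14 were measured, without Lhcgr and Cyp19a1. Among the 14, Fst alone was lower and none was higher, and the median was 0.07. Their sums were 53848 in the knockout and 54192 in wild type, with Inha the largest part, at 20053 in the knockout and 16632 in wild type. Each measured marker of these 5 lists reached the floor on at least 1 of the 4 arrays at 8 h and 24 h. The part of these other cells in the collagen and laminin differences was not tested. In bulk samples such as these, fewer cells of a type and less RNA per cell cannot be told apart.

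**Figure D2:**
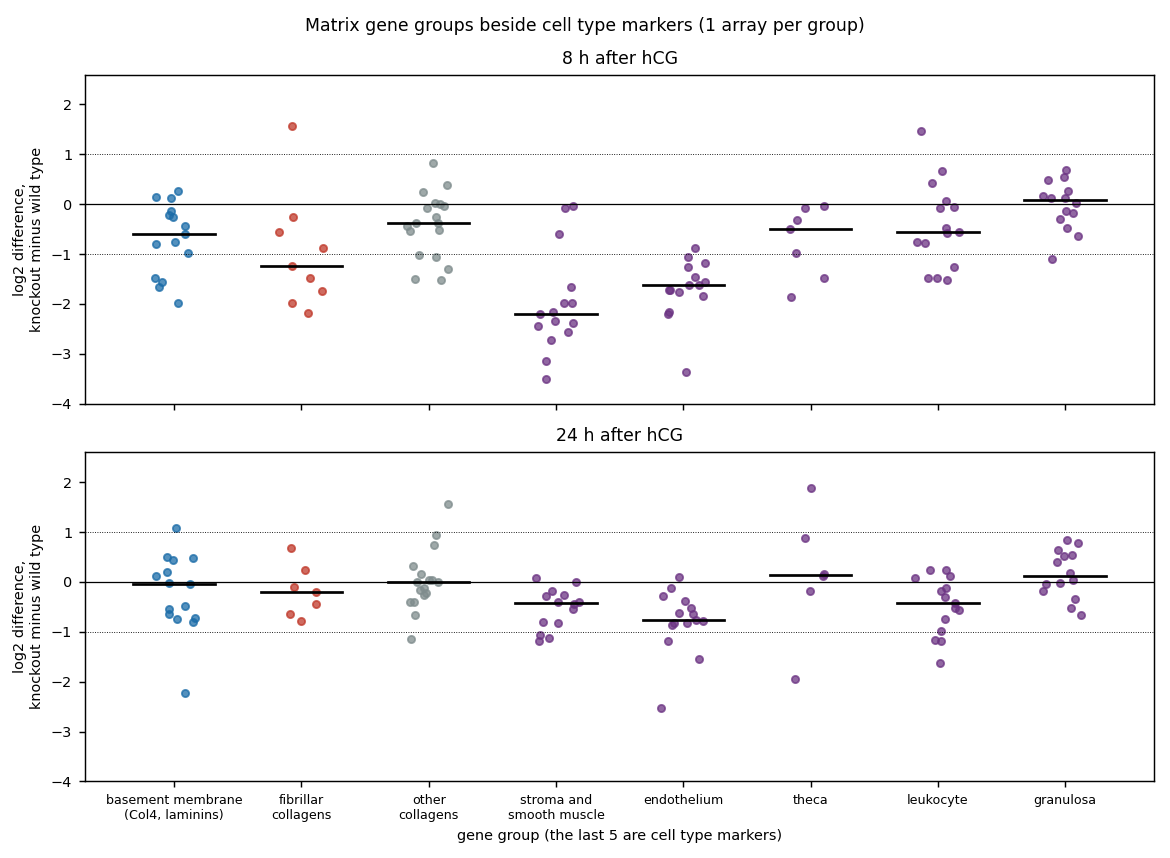
Log2 difference, knockout minus wild type, of the genes at the floor in 3 groups of collagens and laminins and 5 lists of cell type markers, at 8 h (top) and 24 h (bottom). Points are genes, black bars are group medians and dotted lines the 2-fold rule. At 8 h the fibrillar median of -1.25 lies between that of the basement membrane group (-0.60) and those of the stroma (-2.20) and endothelium (-1.63) markers. At 24 h all 3 collagen and laminin medians lie between -0.20 and 0.

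At 24 h, when granulosa cells luteinize, Col12a1 was the only one of the 14 genes lower at 8 h that was past the rule on its main probe set, and Lamc3, Lama3 and Col8a1 were past it at 24 h only. Of 39 members at the floor, 2 were lower and 2 higher, 5.13% each, against 3.92% lower and 3.13% higher, or 7.04% in either direction, of all 13052 genes. By the 2-fold rule the shares of members were thus close to those of all genes. With a 1.5-fold threshold 23.1% of members were lower, against 10.3% of all genes, and 12.8% higher, against 11.6%. The median was -0.20 over 7 fibrillar and -0.05 over 15 basement membrane members, beside 0.05 over all genes. The basement membrane median joined unlike parts, -0.48 over 9 laminins and 0.09 over 6 type IV chains. At 8 h the laminin median had been -0.44. No fibrillar member was past the rule on its main probe set, but other probe sets of Col3a1 (-1.06) and of Col5a1 (-1.16 and -1.29) were. Averaged over its 3 probe sets, Col5a1 was past the rule (-1.08). Of the markers at the floor, 3 of 14 for stroma and smooth muscle were lower (median -0.42), and 3 of 15 for endothelium (median -0.76). For leukocytes 3 of 15 were lower too (median -0.42). For theca 1 of 6 was lower and 1 higher (median 0.14), and for granulosa cells 0 of 14 were past the rule (median 0.11). The stroma and smooth muscle sums were 5852 in the knockout against 9257 in wild type. The endothelium sums were 852 in the knockout against 1585 in wild type.

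Lamc3, a laminin gamma chain of restricted expression, was the member farthest from wild type at 24 h, at 26 in the knockout and 122 in wild type, 4.69-fold lower. At 8 h it was 25 in the knockout and 34 in wild type, near the floor in each, and wild type at 24 h was the only one of these 4 arrays above 34. A second probe set of Lamc3 gave a log2 difference of -1.93 at 24 h, beside -2.23 for the main one. Lama3, an alpha chain of epithelial laminin, was 57 in the knockout and 27 in wild type, 2.11-fold higher. That call rested on a single probe set, with the suffix _a_at, and the other probe set of the gene was under the floor on each of the 4 arrays. Lamb3, a chain that pairs with Lama3 in epithelia, was under the floor throughout, at 10 to 14.

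Col8a1, a network-forming collagen of vessel walls, was 193 in the knockout and 65 in wild type at 24 h, 2.97-fold higher. A second probe set was also past the rule, with a log2 difference of 1.16 beside 1.57. The mean of all 3 probe sets, 1 of them under the floor, was short of the rule at 0.91. Col12a1 was 30 in the knockout and 66 in wild type, 2.20-fold lower, and again only on its main probe set. It was the only member called at both times.

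On their main probe sets, the genes that had been lower at 8 h lay nearer to wild type at 24 h. Col3a1 was 3955 in the knockout and 6211 in wild type, and Col1a1 was 441 in the knockout and 600 in wild type. Col1a2 was 3608 in the knockout and 4150 in wild type, Col5a1 464 in the knockout and 803 in wild type, and Col5a2 992 in the knockout and 1067 in wild type. All 5 remained below wild type, with log2 differences of -0.11 to -0.79. Col4a1 was 3078 in the knockout and 4826 in wild type, and Col4a2 was 1413 in the knockout and 2050 in wild type. Col4a4 was 97 in the knockout and 99 in wild type, and Lama2 103 in the knockout and 95 in wild type, so these 2 were level between genotypes. Of type VI, Col6a1 was 1872 in the knockout and 2460 in wild type, Col6a2 794 in the knockout and 768 in wild type, and Col6a3 428 in the knockout and 468 in wild type. Col15a1 was 304 in the knockout and 271 in wild type. On the main probe set of each of the 14 genes lower at 8 h, the difference was nearer 0 at 24 h. The same held for 87.4% of the 523 genes lower at 8 h in the whole table. Other probe sets of Col5a1 were farther from wild type at 24 h, at -1.16 against -1.09 at 8 h and -1.29 against -0.74. Another probe set of Col12a1 at the floor was farther too, at -0.43 against -0.22.

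Of the other laminin chains at 24 h, Lamb1 was 1289 in the knockout and 1795 in wild type, Lamb2 413 in the knockout and 678 in wild type, and Lamc1 371 in the knockout and 384 in wild type. Lama1 was 960 in the knockout and 712 in wild type. None of these 4 passed the rule on its main probe set. Another probe set of Lamc1 gave -0.88, at 35 in wild type and, under the floor, 19 in the knockout. The 3 probe sets of Lamb1 at the floor lay below wild type by unequal amounts, -0.48, -0.92 and -2.11, and the last was past the rule, at 35 in the knockout and 151 in wild type. Lama4 and Lama5, the alpha chains of vessels and of most epithelia, had log2 differences of -0.81 and -0.74, and another probe set of Lama5 at the floor lay the other way (0.43), at 43 in the knockout and 32 in wild type.

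**Figure D3:**
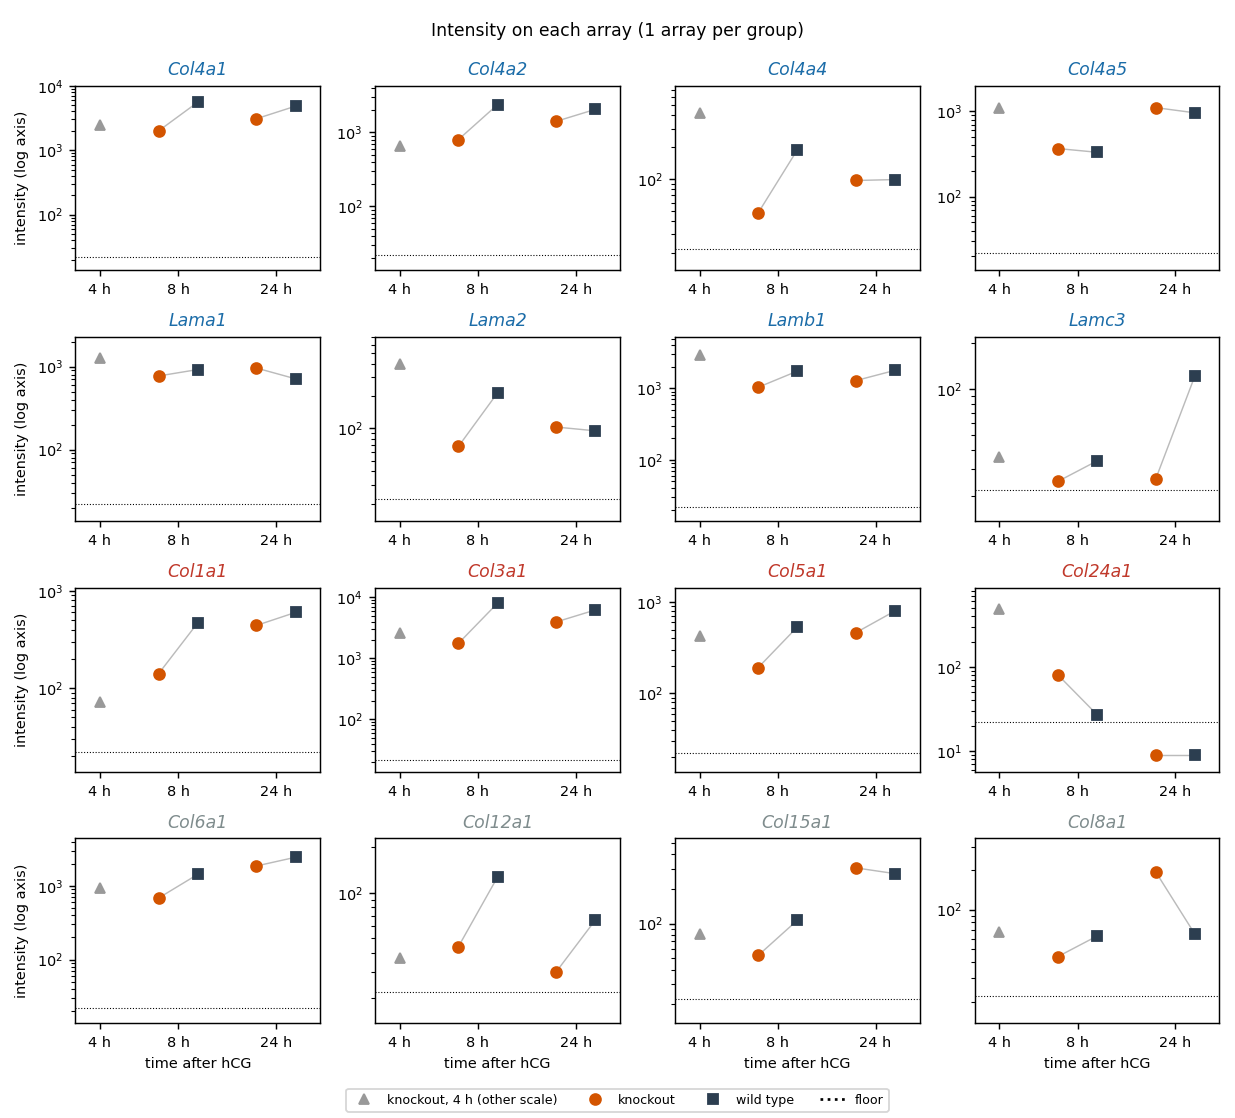
Intensity on a log axis of 16 collagen and laminin genes on each of the 5 arrays, with the knockout (circles) left of wild type (squares) at 8 h and 24 h, and the knockout at 4 h (triangles), whose array is on another scale. Each point is 1 array, and the dotted line is the floor of 22. Col3a1 is at 1762 in the knockout and 8032 in wild type at 8 h and at 3955 in the knockout and 6211 in wild type at 24 h, while Lamc3 is apart at 24 h, at 26 in the knockout and 122 in wild type.

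Over time, 12 members were higher at 24 h than at 8 h in the knockout and 3 in wild type. In the knockout 12 of 39 members at the floor were higher at 24 h and 1 lower, 30.8% and 2.56%, against 6.85% higher and 5.26% lower, or 12.1% in either direction, of all genes. In wild type 3 of 42 were higher and 2 lower, 7.14% and 4.76%, against 5.55% higher and 6.45% lower, or 12.0% in either direction, of all genes. The difference of the time changes, knockout minus wild type, was past 1 on the log2 scale in 14 of 42 members and past -1 in 2, 33.3% and 4.76%, against 5.04% and 3.09%, or 8.13% in either direction, of all genes. These comparisons use the same 4 arrays as the genotype differences and are not independent of them. The lists of cell type markers were taken in the same way. The difference of the time changes was past 1 in 11 of 15 markers of stroma and smooth muscle (median 1.75) and in 6 of 16 of endothelium (median 0.80), and in 0 of 14 of granulosa cells (median 0.15). For theca 3 of 7 markers were past 1 and 1 past -1 (median 0.76). For leukocytes 2 of 15 were past 1 and 4 past -1 (median 0.25). Surface epithelium had 0 of 8 past 1 and 2 past -1 (median -0.68), and the oocyte median was 0.50. In wild type 8 of 15 stroma and smooth muscle markers were lower at 24 h than at 8 h (median -1.21), and in the knockout 0 of 14 were lower and 2 higher (median 0.29). Their part in the time changes was not tested. The fibrillar median of the time change was 0.96 in the knockout and -0.35 in wild type, and the basement membrane median 0.49 in the knockout and -0.20 in wild type.

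Of the fibrillar genes, 4 were higher in the knockout at 24 h than at 8 h. In the knockout at 24 h against 8 h, Col1a1 was 3.13-fold, Col1a2 2.85-fold, Col5a1 2.42-fold and Col3a1 2.24-fold higher. In wild type these genes were short of the rule, with log2 differences of 0.36, -0.27, 0.59 and -0.37. The other probe sets of Col5a1 were short of it in the knockout too, at 0.29 and 0.00. Col6a1 (2.72-fold) and Col6a2 (2.24-fold) were also higher at 24 h in the knockout, and Col4a4 (2.02-fold) and Lama3 (2.28-fold) likewise. Col8a1 was 4.39-fold higher in the knockout at 24 h and level in wild type, at 65 at 24 h and 63 at 8 h. Col14a1, which like Col12a1 associates with fibrils, was 35 at 24 h and 17 at 8 h in the knockout, at least 1.59-fold higher, and 41 at 24 h and 23 at 8 h in wild type. That call rests on an 8 h value under the floor, and another probe set of Col14a1 gave 0.07 in the knockout, at 22 at 24 h and 21 at 8 h.

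Col4a5 and Col15a1 were higher, and Col24a1 lower, at 24 h in both genotypes. Col4a5 was 1103 at 24 h and 366 at 8 h in the knockout, 3.01-fold higher, and 959 at 24 h and 331 at 8 h in wild type, 2.90-fold higher. Its second probe set passed the rule in both genotypes. The time changes of Col4a5 differed between genotypes by 0.06 on the log2 scale, those of Col15a1 and Col24a1 by 1.18 and -1.57, both past the rule. Col15a1 was 5.74-fold higher in the knockout and 2.53-fold higher in wild type. Col24a1 was 9 at 24 h in each genotype and under the floor, at least 3.64-fold lower in the knockout and at least 1.23-fold lower in wild type. Lamc3 was 3.59-fold higher at 24 h in wild type alone, and Lama2 2.25-fold lower in wild type alone, by the rule.

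Col4a3 (1.46) and Col11a1 (1.55) were past the rule in the difference of the time changes and, on their main probe sets, in none of the other 4 comparisons. The other probe set of Col11a1 was past it at 8 h (-1.09) and in the wild-type time change (-1.10). Col4a3 was 35 in the knockout and 25 in wild type at 24 h, and Col11a1 was 174 in the knockout and 109 in wild type. For both genes the knockout was the lower genotype at 8 h and the higher one at 24 h.

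**Figure D4:**
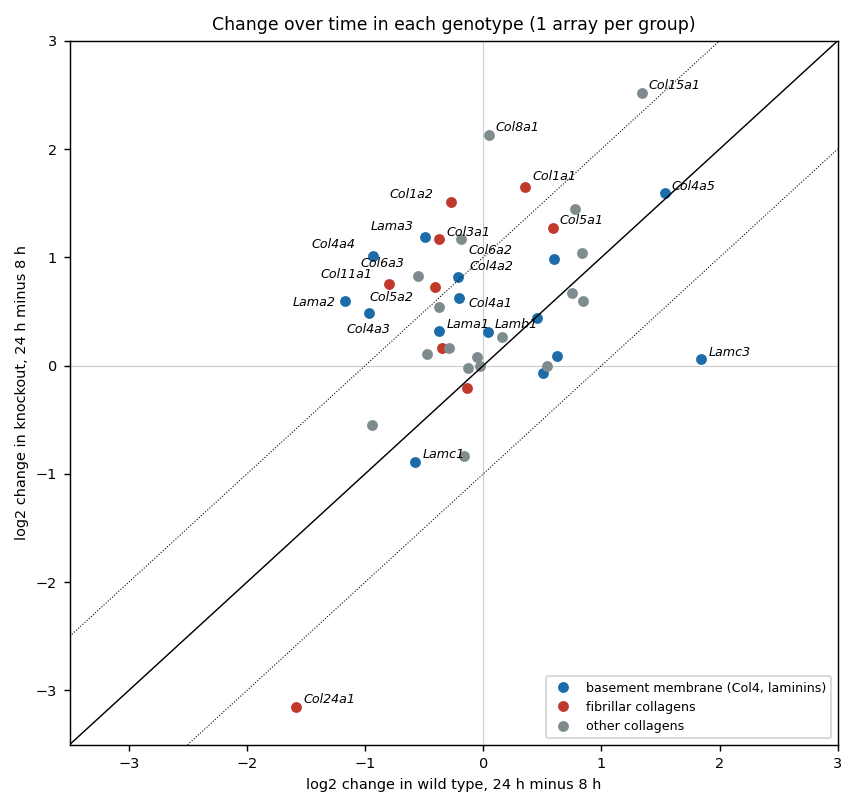
Log2 change from 8 h to 24 h in the knockout (vertical) against wild type (horizontal) for the 42 collagen and laminin genes at the floor on at least 1 of the 4 arrays, 1 point per gene. The solid line marks equal change and the dotted lines a difference of 1. Above the upper dotted line lie 14 genes, among them Col1a1, Col1a2, Col3a1 and Col8a1, and below the lower one Lamc3 and Col24a1.

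A model of genotype and time on the 4 arrays at 8 h and 24 h, fitted with limma over 13316 genes, called 0 genes at an adjusted p of 0.05 (0% of all genes), with 1505 genes and 12 of 42 fitted members at an unadjusted p under 0.05. With 1 residual degree of freedom, the error of each gene came from how unequal both times were, and not from replicates. That error was then drawn by limma towards a trend over all fitted genes. The lowest limma adjusted p among members was 0.295, for Col12a1, with an averaged log2 difference of -1.33 ± 0.21 (SE). The averaged difference of Col4a1 was -1.06 ± 0.24 (limma adjusted p = 0.348) and that of Col3a1 -1.42 ± 0.40 (limma adjusted p = 0.404). For each of these 3 genes the knockout was the lower genotype at both times.

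The knockout at 4 h, for which no wild-type array was analysed here, is described by intensity and by percentile within each array. Col24a1 had an intensity of 486 there, and its percentile in the knockout was 81.5 at 4 h, 64.2 at 8 h and 17.2 at 24 h. Lama2 (396) and Col4a4 (424) also had their highest knockout percentiles at 4 h. That of Lama2 was 79.0 at 4 h, 61.9 at 8 h and 67.5 at 24 h, and that of Col4a4 was 79.8 at 4 h, 57.0 at 8 h and 66.6 at 24 h. Col1a1 (72) ran the other way, with percentiles of 55.2 at 4 h, 72.0 at 8 h and 86.7 at 24 h in the knockout. Col4a2 (661) did so too, with 85.1 at 4 h, 92.1 at 8 h and 95.7 at 24 h. Col4a1 (2499), Col3a1 (2637) and Col1a2 (2017) had percentiles between 94.3 and 98.7 on each knockout array. The other intensities at 4 h were 427 for Col5a1, 709 for Col5a2, 930 for Col6a1, 581 for Col6a2 and 714 for Col6a3. They were 37 for Col12a1, 45 for Col14a1, 81 for Col15a1, 68 for Col8a1, 420 for Col11a1, 1107 for Col4a5 and 92 for Col4a3. Lama3 was 41 and Lamc3 36 at 4 h, percentiles of 44.6 and 41.5.

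Genes that make, link or bind these proteins were described in 3 lists. By the rule, 4.05% of all genes were lower and 1.58% higher at 8 h, and 3.92% lower and 3.13% higher at 24 h. Shares lower at 8 h were 16.0% for collagen synthesis, 18.8% for basement membrane partners and 18.8% for receptors, and shares higher 0%, 6.25% and 0%. At 24 h the shares lower were 8.0%, 13.3% and 12.5%, and the shares higher 0%, 13.3% and 12.5%. Of 28 measured genes of collagen synthesis, 25 reached the floor at 8 h, with a median of -0.10, 4 lower and none higher. The 4 were the lysyl oxidases that cross-link collagen, Loxl3 (5.69-fold), Lox (3.73-fold) and Loxl1 (2.59-fold), and Pcolce, an enhancer of procollagen processing (2.41-fold). Serpinh1, the collagen chaperone, named after its values were seen, was 3522 in the knockout and 3640 in wild type. At 24 h Crtap, a part of the prolyl hydroxylation complex (2.26-fold), and Loxl4 (at least 2-fold) were lower and none of 25 higher, with a median of -0.13.

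Among 16 basement membrane partners at the floor at 8 h, the nidogens that tie laminin to type IV collagen were lower, Nid1 at 270 in the knockout and 795 in wild type (2.94-fold) and Nid2 at 37 in the knockout and 100 in wild type (2.70-fold). Frem1 (10 in the knockout and 22 in wild type) was also lower by the rule, though at the floor itself in wild type. Ntn4, a laminin-related netrin that interferes with laminin networks, was higher, at 583 in the knockout and 272 in wild type (2.14-fold). The list's median was -0.43 at 8 h and -0.29 at 24 h. At 24 h Ntn4 (2.08-fold) and Smoc2, a SPARC-related matrix protein (5.10-fold), were higher, and Ecm1 (2.05-fold) and Tinagl1 lower, of 15, the last at 967 in the knockout and 3485 in wild type.

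Of 16 collagen and laminin receptors, 3 were lower at 8 h and none higher, with a median of -0.33. Itga1, the integrin chain that binds type IV collagen, was 69 in the knockout and 256 in wild type (3.71-fold), Ddr2, a receptor for fibrillar collagen, 57 in the knockout and 154 in wild type (2.70-fold), and Bcam, a receptor for laminin with the alpha chain Lama5, 68 in the knockout and 169 in wild type (2.49-fold). At 24 h Sdc1, a syndecan (4.48-fold), and Ddr2 (2.02-fold) were lower, and Itga6, a laminin receptor chain (2.12-fold), and Ddr1, which binds type IV and fibrillar collagens (2.02-fold), higher, with a median of -0.10. Itga6 was 3359 in the knockout and 1586 in wild type at 24 h.

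The other 30 members passed the rule in none of the 5 comparisons on their main probe sets, though another probe set of Lamb1, of Lamc1 and of Col25a1 passed it in at least 1. On the main probe sets, those of them at the floor differed between genotypes by -0.79 (Lama4) to 0.82 (Col9a2) at 8 h and by -0.81 (Lama4) to 0.94 (Col6a4) at 24 h on the log2 scale. Col9a2, a cartilage collagen, was above wild type at both times by less than the rule, at 106 in the knockout and 60 in wild type at 8 h and at 169 in the knockout and 101 in wild type at 24 h. The 10 members under the floor on every 8 h and 24 h array were Lamb3, Col2a1, Col11a2, Col19a1, Col6a5, Col8a2, Col10a1, Col17a1, Col23a1 and Col26a1, among them the cartilage collagens Col2a1 and Col10a1 and the skin collagen Col17a1.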

How the data were processed

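Granulosa cell RNA of 5 groups, 1 array each, was measured on Affymetrix arrays of 45101 probe sets, and groups were taken from the array titles. Per the labels' protocols, RNA was extracted with RNeasy kits and labelled as cRNA. The authors' deposited values are intensities, whole numbers on a linear scale. Software named in the submitters' processing notes was affy and RMA, with no version and no genome build. Rounding makes log2 differences coarse at low intensity.

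A single gene symbol was listed for 34958 probe sets, several for 932 and none for 9211. Symbols came from the platform annotation, updated by Entrez identifier (34754 matched) from the GRCm38.p6 gene table. The probe set of highest mean log2 intensity over the 5 arrays represented each gene. Log2 differences, the 2-fold rule and the floor were applied to all genes. The averaged genotype effect used limma 3.58.1 in R 4.3.3 (trended eBayes, Benjamini-Hochberg), and the steps were tested on simulated data.

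Members and lists were chosen with earlier results of these data known. Values on all arrays were to be printed for members past the rule in any comparison and for their partner chains, and up to 4 genes past the rule from each other list per genotype comparison. Values of genes short of the rule were added after they had been seen. Alternatives were another scaling, threshold, floor or choice of probe sets. Lists whose genotype differences are not described in the text were markers of surface epithelium and of oocytes. The median log2 difference of surface epithelium markers was 0.17 at 8 h and -0.52 at 24 h, and that of oocyte markers -0.19 and 0.21.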

Additional observations from a re-analysis of the deposited data

Results flagged for a closer look

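Differences between genotypes changed direction between 8 h and 24 h in 4 members whose difference exceeded the technical spread between probe sets at each time and whose time changes differed by at least 1 between genotypes, and the change itself was not tested. Col4a3 differed by 0.49 at 24 h and -0.97 at 8 h (log2, knockout minus wild type), Lama3 by 1.08 at 24 h and -0.60 at 8 h, Col11a1 by 0.67 at 24 h and -0.88 at 8 h, and Col8a1 by 1.57 at 24 h and -0.52 at 8 h.

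The knockout array at 4 h, which no comparison used, held 2 members at a percentile at least 20 points above that of either wild-type array. Col24a1 had an intensity of 486 (81.5th percentile) and was at the 47.4th and 17.4th percentiles in wild type at 8 and 24 h. Col23a1, a transmembrane collagen, had an intensity of 52 (49.3th percentile) and was under the floor on the other 4 arrays, while its other probe sets had 15 and 26 at 4 h.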

How the results depend on the processing

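No paired analysis was possible because each group has 1 array and the labels give no replicate numbers. Every limit below is that of single arrays, and no depth can be stated for intensities. At 8 h, 14 of 14 genes called lower stayed below wild type under each alternative that gave them a value, and the calls lost were those of Col12a1 with the mean of probe sets and Col15a1 under both scalings. At 24 h, Col12a1, Col8a1 and Lama3 lost the call with the mean of probe sets and Lama3 with the floor at the 60th percentile. Calls were gained by Col5a1 at 24 h with the mean of probe sets (-1.08), by Col3a1 at 24 h without probe sets of the suffixes _s_at, _x_at and _a_at (-1.06), and by Col11a1 at 8 h with probe sets chosen without the 4 h array (-1.09). Lama3 turned to -0.22 without those suffixes, on a probe set under the floor, so that alternative rests on an unmeasured level.

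With a 1.5-fold threshold, members higher numbered 2 at 8 h, 5 at 24 h, 21 over time in the knockout and 10 over time in wild type, and members lower numbered 9 at 24 h, 3 over time in the knockout and 6 over time in wild type. At that threshold the share higher was 4.76% of members against 4.83% of all genes at 8 h, 12.8% against 11.6% at 24 h, 53.8% against 16.6% over time in the knockout and 23.8% against 13.7% over time in wild type. The share lower was 23.1% of members against 10.3% of all genes at 24 h, 7.69% against 11.4% over time in the knockout and 14.3% against 14.1% over time in wild type. With the mean of probe sets, members higher at 24 h numbered 0 and members lower over time in the knockout 2, and the fibrillar median of the time change in the knockout was 0.56. Members higher at 24 h numbered 1 without those suffixes, and also 1 with the floor at the 60th percentile. That floor gave a basement membrane median of -0.48 at 24 h and 1 member lower over time in wild type. When low values were set to the floor, 1 member was lower over time in wild type, and the fibrillar median was -0.88 at 8 h and 0.69 for the difference of the time changes, by taking in members under the floor. The limma fit called 0 members in each of its 5 alternatives. Choosing probe sets without the knockout array at 4 h, an alternative added after seeing the data, exchanged the probe set of 3 members and left each count within 1.5 times its value.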
